A study of Homo sapiens with 6 samples.

Results

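RPS3, the transcript that 1 of the siRNAs was directed against, is 1 of 4604 genes named on a 2-colour spotted array of 15246 probes, and was represented there by a single probe, 35554_1, chosen because the platform annotation gives it the symbol RPS3. It was followed here on all 6 arrays of the series, together with the 77 probes whose ID numbers lie within 50 of its own. The cells were Jurkat, a human T-cell leukaemia line. The 3 RPS3 siRNA arrays set Cy5-labelled RNA of cells given RPS3 siRNA, stimulated through anti-CD3/CD28 (1 ug) for 1, 3 or 6 h, against Cy3-labelled RNA of cells given nonspecific siRNA and stimulated for the same time. The 3 p65 siRNA arrays did the same for cells given siRNA against p65, 1 array per time. All cells of both channels had been transfected with an siRNA and stimulated, so no array shows an untransfected or resting cell. A dye swap or a hybridisation of control RNA to itself is not among the labels, and nothing tells whether cultures were independent. The p-values therefore reflect array-to-array spread, which may be technical.

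Values are log ratios per probe, read as log2 of siRNA over control, with each array centred on its median. That direction follows from the dyes and is likely rather than settled, since the deposited values state none. The times of a siRNA stand as its 3 replicates. Between 12946 and 14149 probes had a value on an RPS3 siRNA array and between 12984 and 14423 on a p65 siRNA array. Brightness of the channels was not used here, and precision is limited by there being 3 arrays per siRNA. The 6 h arrays stood apart: they correlated at 0.69 with each other over all probes and between -0.22 and 0.10 with the other arrays, and results are given with and without them where that changes a call. Among the other arrays, RPS3 siRNA at 1 h correlated at 0.47 with p65 siRNA at 3 h, and RPS3 siRNA at 3 h at 0.46 with p65 siRNA at 1 h, against 0.12 for both at 1 h and 0.20 for both at 3 h. Each of these cross-time pairs also shared a series of consecutive experiment ID numbers in the labels. The 1 h arrays were split between series, and so were the 3 h arrays. Whether the correlations go with series or with time was not tested. Times are given as labelled, and whether any array carries another time than its label was not tested. The means over the 3 arrays of a siRNA do not depend on it, while values given for 1 h and 3 h do. Of 16 T-cell symbols looked for, 14 were on the array, and 81.2% of their probes had values on all 6 arrays, against 43.2% for markers of other blood and tissue lineages and 70.3% for all probes. Ratios to control give no level, so this is no measure of cell identity.

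RPS3 is a protein of the small (40S) ribosomal subunit that sits at the entry of the mRNA channel and binds RNA through a KH domain. Outside the ribosome it is known as an endonuclease that acts on damaged DNA, and the series' title names it as a component of the complexes of p65. p65, encoded by RELA, is the transactivating subunit of NF-kB, a transcription factor that IkB proteins hold in the cytoplasm until a signal such as T-cell receptor stimulation releases it. An siRNA directs the cleavage of the transcript that it matches, so the ratio of the targeted transcript is the first reading of a knockdown experiment. The p65 siRNA arrays show the same probe in cells where a different transcript was targeted.

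Because the p65 siRNA arrays ask whether RPS3 moves when an NF-kB subunit is targeted, the 250 bases before the RPS3 start are printed here from RefSeq (GRCh38.p14, chr11:75399268-75399517, plus strand, 5′ to 3′). The motif searched for was GGGNNNNNCC on both strands, a loose form of the NF-kB site, and any match would have been in capitals.
RPS3 promoter: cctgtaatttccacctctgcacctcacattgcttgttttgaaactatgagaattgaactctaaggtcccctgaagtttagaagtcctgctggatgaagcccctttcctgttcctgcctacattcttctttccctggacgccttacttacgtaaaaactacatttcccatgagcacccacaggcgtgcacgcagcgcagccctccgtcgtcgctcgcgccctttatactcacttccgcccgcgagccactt
The window held 0 matches, and 54.4% of the 35116 RefSeq promoter windows of this length held at least 1. The absence of these letters says nothing about binding of the factor.

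The RPS3 transcript read far below control on each array of RPS3 siRNA and close to or above control on each array of p65 siRNA. On the RPS3 siRNA arrays its log2 ratio was -2.50 at 1 h, -2.53 at 3 h and -1.44 at 6 h, which is 17.7%, 17.3% and 36.8% of the control reading. On the p65 siRNA arrays it was 0.11 at 1 h, 0.01 at 3 h and 1.11 at 6 h, or 108%, 100.4% and 216% of control. Were the logs natural, the RPS3 siRNA readings would be 8.22%, 7.95% and 23.7% of control at 1, 3 and 6 h. Were the direction turned, they would be 5.65-, 5.78- and 2.72-fold above it on the log2 reading. The groups did not overlap, and the highest RPS3 siRNA reading, that of 6 h, lay below the lowest p65 siRNA reading. RPS3 siRNA lay below p65 siRNA without overlap at 4.9% of the 10721 probes with values on all 6 arrays.

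The same readings can be placed among all probes of their array. Under RPS3 siRNA the RPS3 probe ranked 3 from the bottom of 13868 at 1 h, 1 of 14149 at 3 h and 6 of 12946 at 6 h. At 1 h the 2 probes below it were HIPK3, a protein kinase, at -2.56 and the unnamed probe 35578_1 at -2.53. At 6 h the 5 below it included VCAM1, an adhesion molecule, at -2.08, the interferon-inducible IFITM1 at -1.51 and again 35578_1 at -1.50. On the p65 siRNA arrays it lay in the body of the distribution at 1 h and 3 h (rank 9639 of 14423 and 6932 of 13701 from the lowest). At 6 h it stood near the top, with 163 of 12984 probes above it.

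**Figure D1:**
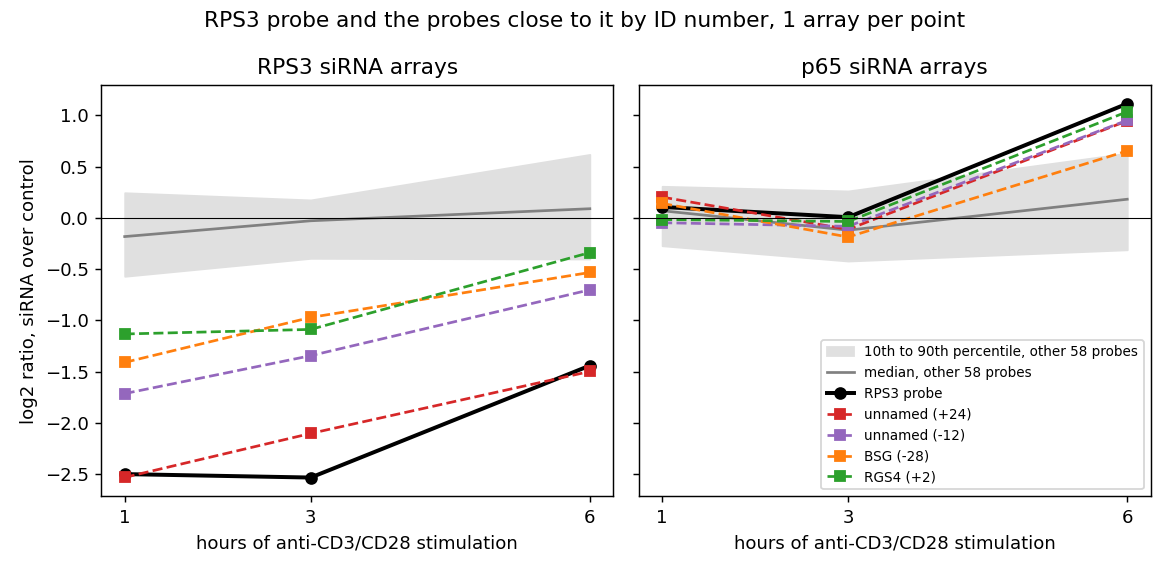
Log2 ratio of siRNA over control (vertical axis) against hours of stimulation (horizontal axis), 1 array per point, for RPS3 siRNA on the left and p65 siRNA on the right. Black is the RPS3 probe, dashed lines are the 4 probes within 50 ID numbers whose mean was lower by 1 or more under RPS3 siRNA than under p65 siRNA (ID offset in brackets), and grey is the other 58 complete probes within 50; RPS3 lies between -2.53 and -1.44 on the left and between 0.01 and 1.11 on the right, and all 5 lines end higher at 6 h than at 3 h.

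The mean log2 ratio of RPS3 on the RPS3 siRNA arrays was -2.16 ± 0.62 (SD, n = 3), 4.46-fold below control, with a 95% confidence interval of -2.78 to -1.54 from limma. It was the lowest mean of all 7267 features tested (probes of 1 symbol averaged), but its limma adjusted p was 0.0993 and it did not pass 0.05. In that comparison 0 features passed (0%), with 346 lower and 290 higher at an unadjusted p under 0.05. Tested probe by probe, RPS3 passed with a limma adjusted p of 0.0439, as 1 of 7 among 10721 probes (0.0653%), all 7 of them lower. All 7 had the same adjusted p. By unadjusted limma p RPS3 ranked 6 of the 10721 probes and 3 of the 7267 features. Without both 6 h arrays its mean was -2.52 and its limma adjusted p 0.00178. Leaving out the RPS3 siRNA 6 h array alone gave -2.52 with a limma adjusted p of 0.0276, and leaving out the p65 siRNA 6 h array, which enters the shared estimate of spread, gave 0.0173. Leaving out any other single array gave limma adjusted p of 0.221 to 0.795, and the series of experiment ID numbers as a covariate gave 0.418.

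On the p65 siRNA arrays RPS3 averaged 0.41 ± 0.61 (SD, n = 3), with a 95% confidence interval of -0.21 to 1.03 and a limma adjusted p of 0.936. The interval reaches from slightly below control to about the level seen at 6 h. Among the 7267 features 0 passed in this comparison (0%), with 360 at an unadjusted p under 0.05 in limma. The mean was carried by the 6 h array: without it the mean was 0.06.

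The difference between the siRNAs was nearly the same at every time. RPS3 siRNA minus p65 siRNA was -2.60 at 1 h, -2.54 at 3 h and -2.55 at 6 h, a mean of -2.57 ± 0.03 (SD, n = 3 times) and 5.92-fold. This was the lowest difference of all 7267 features and of all 10721 single probes. Its limma 95% confidence interval was -3.44 to -1.69. The adjusted p was 0.511, and 0 features passed (0%), with 185 at an unadjusted p under 0.05. That fit takes the spread between times within each siRNA as its error. When the fit took time as a block, the limma adjusted p was 0.00552 and 2 features passed (0.0275%). That block pairs arrays by labelled time, as does the SD of 0.03. Same-time arrays deviated together from the group means at 6 h (correlation 0.77) but little at 1 h (0.08) and 3 h (0.13), so the pairing is uncertain. With both 6 h arrays left out the difference was -2.57 and passed, at a limma adjusted p of 0.0154. An exact two-sided permutation test of 3 arrays against 3 gave p = 0.1, the smallest value that design allows. Arrays with consecutive experiment ID numbers in the labels form 2 series. The difference was -2.64 within the first (1 array of each siRNA, RPS3 siRNA at 3 h and p65 siRNA at 1 h). It was -2.53 within the second (2 of each, RPS3 siRNA at 1 h and 6 h, p65 siRNA at 3 h and 6 h). These within-series differences are not matched in time.

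What both siRNAs shared was the higher reading at 6 h. RPS3 was higher at 6 h than at 1 h and 3 h by 1.07 under RPS3 siRNA and by 1.06 under p65 siRNA. Over both siRNAs it rose by 1.07 (SE 0.12), with a limma adjusted p of 0.0054. In that comparison 10.3% of the 7267 features passed and 8.34% passed upward, so RPS3 was 1 of 606 that rose. Each siRNA has a single 6 h array, and without that of RPS3 siRNA or that of p65 siRNA the limma adjusted p was 0.131 and 0.0989. These are ratios to the control of the same time, so a change of the targeted cells and a change of the control cannot be told apart. Whether the control RNA of a time was shared between the siRNAs is not stated.

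The readings of the probes closest to RPS3 in ID number bear on how specific the low reading was. ID numbers are the names of the probes on the platform. Whether numbers close together mean close spots on the slide was not tested. Of the 77 probes within 50, 49 had a symbol and 28 had none, and 62 had values on all 6 arrays. The highest number is 33 above that of RPS3, so there are 50 probes below it and 27 above it.

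Most of these 62 probes read near control under RPS3 siRNA. Their means had a median of -0.08 (interquartile range -0.22 to 0.11), against 0.0025 for the 10658 probes over 50 away. SEPTIN2, a cytoskeletal GTPase gene whose probe has the number just before RPS3, read -0.41 at 1 h, -0.12 at 3 h and 0.38 at 6 h under RPS3 siRNA. CDK8, the Mediator kinase gene 2 numbers before RPS3, read 0.93, 0.31 and 0.43 at these times. Neither shared the low mean of RPS3 under RPS3 siRNA, with -0.05 for SEPTIN2 and 0.55 for CDK8. On the other side, the unnamed 35555_1, 1 number after RPS3, read -0.32 at 1 h and -0.21 at 3 h and had no 6 h value. The next, RGS4, averaged -0.85 under RPS3 siRNA. SEPTIN2 did share the higher 6 h reading, by 0.65 under RPS3 siRNA and 0.80 under p65 siRNA relative to 1 h and 3 h. Over both siRNAs SEPTIN2 passed that test at a limma adjusted p of 0.0425, and CDK8 did not (0.894). Means under RPS3 siRNA were below 0 for 39 of the 62, against 5281 of the 10658 further away. Below 0 on all 3 RPS3 siRNA arrays were 18 of the 62 (29.0%), against 16.4% of the probes further away. The median of the 62 by array was -0.20, -0.03 and 0.03 at 1, 3 and 6 h under RPS3 siRNA and 0.07, -0.12 and 0.18 under p65 siRNA.

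A small number of the close probes read low. Means of -0.5 or lower were found for 6 of the 62 (9.68%), against 2.01% of all 10721 probes and 1.96% of those over 50 away. These were 35578_1, 35542_1, BSG, RGS4, GLYR1 and POLQ. In limma's test of single probes 1 of the 62, 35578_1, passed, at an adjusted p of 0.0439. At an unadjusted p under 0.05 there were 11 (17.7%, against 9.47% further away). Without both 6 h arrays 4 of the 62 passed (35578_1, 35542_1, BSG and RGS4), of 15 among all probes (0.14%).

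Probe 35578_1, 24 numbers above RPS3 and without a gene symbol in the annotation, gave readings close to those of RPS3 on every array. It read -2.53, -2.10 and -1.50 at 1, 3 and 6 h under RPS3 siRNA, a mean of -2.04 ± 0.52 (SD, n = 3). Under p65 siRNA it read 0.20, -0.11 and 0.95 at these times. It was the second lowest mean among single probes under RPS3 siRNA, and the 6 h array was the highest of each siRNA, as for RPS3. Which transcript it detects is not annotated in the sources used here.

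Probe 35542_1, 12 numbers below RPS3 and also without a symbol, showed the same order at smaller size. It read -1.71, -1.34 and -0.70 at 1, 3 and 6 h under RPS3 siRNA and -0.05, -0.08 and 0.95 under p65 siRNA. Its mean of -1.25 ± 0.51 (SD, n = 3) was the third lowest, with a limma adjusted p of 0.244.

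The next were a pair of named genes. BSG encodes basigin, a surface glycoprotein of the immunoglobulin superfamily, and its probe 28 numbers below RPS3 read -1.41, -0.97 and -0.53 at 1, 3 and 6 h under RPS3 siRNA. Under p65 siRNA the same BSG probe read 0.14, -0.19 and 0.65. RGS4 encodes a regulator of G-protein signalling, and its probe 2 numbers above RPS3 read -1.13, -1.09 and -0.34 under RPS3 siRNA. Under p65 siRNA the RGS4 probe read -0.02, -0.04 and 1.03, so its 6 h reading stood out on those arrays as that of RPS3 did. Over 3 arrays of RPS3 siRNA the BSG probe averaged -0.97 ± 0.44 and the RGS4 probe -0.85 ± 0.45 (SD, n = 3), with limma adjusted p of 0.255 and 0.356.

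**Figure D2:**
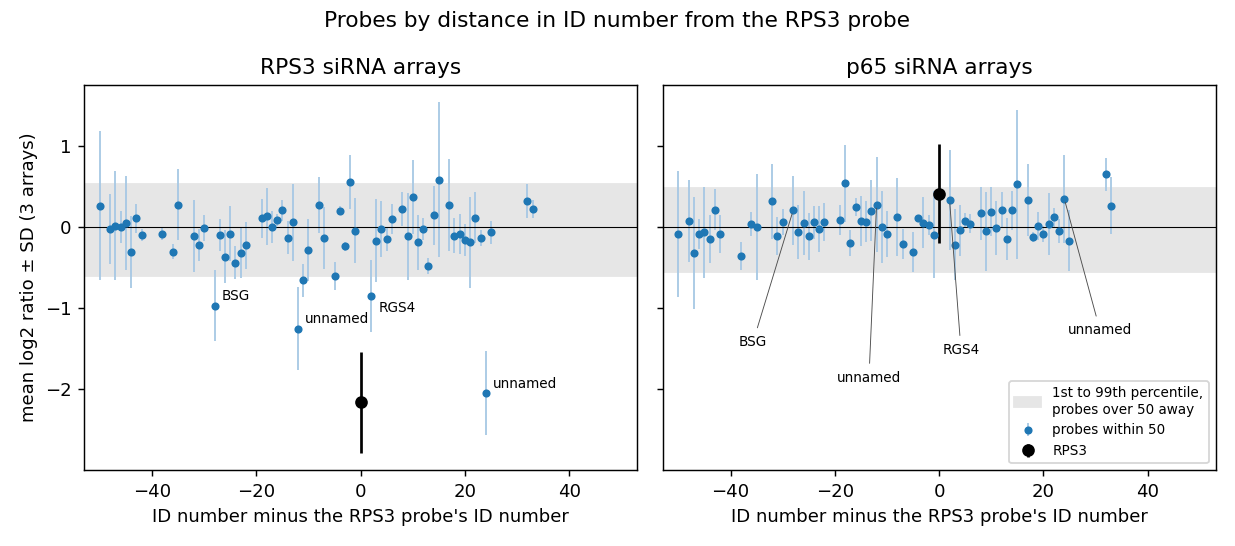
Mean log2 ratio of siRNA over control with SD over 3 arrays (vertical axis) against the ID number of the probe minus that of the RPS3 probe (horizontal axis), RPS3 siRNA left and p65 siRNA right. Blue points are the 62 probes within 50, black is RPS3 and the grey band holds the middle 98% of probes over 50 away. On the left RPS3 at -2.16 and 35578_1 at -2.04 lie far below the band, with 35542_1, BSG, RGS4, GLYR1 and, barely, POLQ also below it. Close probes lie above it too: EPHA7 at 0.58 and CDK8 at 0.55 on the left (upper edge 0.53). On the right they reach 0.65 (upper edge 0.48).

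The difference between the siRNAs was low at these 4 probes, which partly follows from their low RPS3 siRNA means, since the difference contains them. RPS3 siRNA minus p65 siRNA averaged -2.39 ± 0.37 for 35578_1, -1.53 ± 0.23 for 35542_1, -1.18 ± 0.17 for RGS4 and -1.17 ± 0.38 for BSG (SD, n = 3 times). A difference of -1 or lower was found for 7 of 10721 probes (0.0653%): RPS3, these 4, and 2 of the 10658 probes over 50 away. The distant 2 were CCR1, a chemokine receptor gene, at -2.07 ± 3.59 and the unnamed 35023_1 at -1.10 ± 1.94. Each of the distant 2 owed its value to 1 high reading on the p65 siRNA array at 6 h, 7.21 for CCR1 and 4.11 for 35023_1. Without both 6 h arrays, a setting added to this count after the data were seen, 5 probes had a difference of -1 or lower, namely RPS3 and the same 4, and 0 of those over 50 away did. The limit of -1 was set by hand, and just outside it with all arrays was a distant probe of VEGFA, an angiogenic growth factor gene, at -0.99 ± 0.15, with -1.05, -0.82 and -1.11 at 1, 3 and 6 h. In limma's test of the difference, 0 of 10721 probes passed (0%), with 287 at an unadjusted p under 0.05. With the time point as a block, 2 passed (0.0187%), RPS3 and 35578_1, with 35578_1 at a limma adjusted p of 0.0307. The uncertain pairing of arrays by labelled time limits this fit too.

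The 4 probes also shared the higher 6 h reading. The 6 h minus 1 h and 3 h difference under RPS3 siRNA was 0.82 for 35578_1 and 0.83 for 35542_1, and under p65 siRNA it was 0.90 and 1.02. All 4 passed the test of 6 h against 1 h and 3 h over both siRNAs, with limma adjusted p of 0.0194 for 35578_1, 0.0101 for 35542_1, 0.0464 for BSG and 0.0075 for RGS4. Of the 62 probes 18 passed it (29.0%), against 12.2% of all 10721 single probes.

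The likeness to RPS3 across the 6 arrays was higher close to it. As a description over 6 arrays that share cells and controls, Pearson r with RPS3 was 0.9 or higher for 8 of the 62 (12.9%), against 0.704% of the probes over 50 away and 0.774% of all 10720 probes other than RPS3. Among those 8 were DPYSL2, which encodes a protein of axon growth (r 0.967), and MICB, a ligand of the NKG2D receptor (r 0.923). Both moved little, with means of -0.31 and -0.15 under RPS3 siRNA. GLYR1, 11 numbers below RPS3, had r 0.914 and read -0.86, -0.66 and -0.45 at 1, 3 and 6 h under RPS3 siRNA, against -0.09, -0.39 and 0.48 under p65 siRNA. The unnamed 35530_1, the third lowest of the close probes without a symbol, averaged -0.44 under RPS3 siRNA, with r 0.93. POLQ, the gene of DNA polymerase theta, was low without that likeness: its close probe averaged -0.60 under RPS3 siRNA and -0.31 under p65 siRNA, with r 0.42.

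From 50 to 200 away in ID number the counts of low means, of low differences and of high r did not exceed the share of the whole array. Of the 57 complete probes more than 50 and up to 100 away, 1 had a mean of -0.5 or lower under RPS3 siRNA, 0 had a difference of -1 or lower and 0 had r of 0.9 or higher. Of the 87 more than 100 and up to 200 away, all 3 counts were 0. Over all probes but RPS3 these shares were 2.01%, 0.056% and 0.774%. With so few probes per range, counts of 0 or near it are likely at such shares, so they mark no boundary at 50. Some other counts were above the share of the whole array beyond 50 as well. Unadjusted limma p under RPS3 siRNA was under 0.05 for 15.8% and 9.2% in these ranges, against 9.51% of all probes but RPS3. The test of 6 h against 1 h and 3 h passed for 12.3% and 20.7%, against 12.2%. Over 200 away there were 208 probes with a mean of -0.5 or lower, 2 with a difference of -1 or lower and 75 with r of 0.9 or higher, of 10514. The medians under RPS3 siRNA were 0.04 in both ranges up to 200. By Euclidean distance over the 6 arrays, the 4 nearest of 10720 probes to RPS3 were 35578_1 (0.49), 35542_1 (1.62), BSG (2.17) and RGS4 (2.28). This distance and r use the same readings as the low means and differences, so they are not separate evidence.

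Where a gene with a close probe also had a probe over 50 away, the readings of the same gene could be set side by side. This was possible for 30 of the 36 genes with a complete close probe, with 45 far probes in all. The close probe was the lower of the pair for 17 of 30, and the median of close minus far was -0.022. It was lower by 0.5 or more for 3 genes, RGS4, BSG and GLYR1.

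For RGS4 the close probe averaged -0.85 under RPS3 siRNA and the far probe with 3 values 0.38. That far probe read 0.92, 0.15 and 0.08 at 1, 3 and 6 h, none of them below 0. For BSG the close probe averaged -0.97 and the far probe -0.12, with -0.37, -0.02 and 0.02 at the 3 times. For GLYR1 the close probe averaged -0.66 and the far probe 0.03. POLQ differed from these, with -0.60 at its close probe and -0.43 and -0.55 at its far probes. For CLTC, the clathrin heavy chain gene, the close probe averaged -0.48 and the 3 far probes -1.13, -0.11 and 0.04. Whether the low close probes of RGS4, BSG and GLYR1 report their own transcripts was not tested. Averaging over probes carries the close reading into the gene's value: BSG averaged -0.55 over 2 probes under RPS3 siRNA, GLYR1 -0.31 over 2 and RGS4 -0.10 over 3, against -0.12, 0.03 and 0.31 over the far probes alone.

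**Figure D3:**
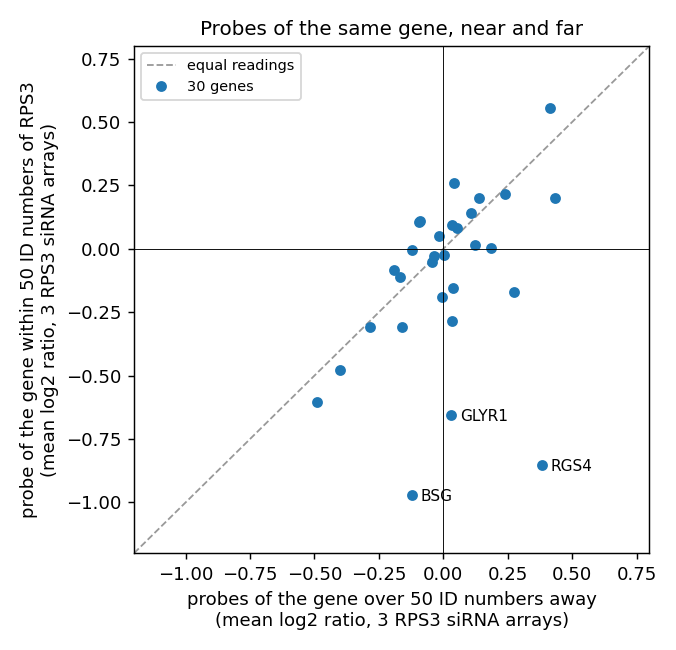
Mean log2 ratio over 3 RPS3 siRNA arrays of a gene's probe within 50 ID numbers of RPS3 (vertical axis) against that of its probes further away (horizontal axis), 1 point per gene for 30 genes, with the dashed line at equal readings. RGS4 (-0.85 against 0.38), BSG (-0.97 against -0.12) and GLYR1 (-0.66 against 0.03) lie below the line by over 0.5.

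Other probes resembled RPS3 in shape but not in size. Besides 35578_1 and 35542_1 the highest r belonged to the unnamed 24280_1 (0.991) and 17445_1 (0.989) and to TIMP1, a metalloproteinase inhibitor gene (0.980). The mean of TIMP1 was -0.23 under RPS3 siRNA and 0.07 under p65 siRNA. Among named probes next came RPS9 (0.977), a 40S protein gene, KLF13 (0.973), a zinc-finger transcription factor gene, AURKA (0.970), a mitotic kinase gene, and RPL13 (0.968), a gene of the large ribosomal subunit. The RPS9 probe read -0.41, -0.37 and 0.11 at 1, 3 and 6 h under RPS3 siRNA, against 0.37, 0.26 and 0.62 under p65 siRNA. With 6 points and 10720 probes, an r of this height is a description only.

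The probes with the lowest means after RPS3, 35578_1 and 35542_1 had a different pattern over the siRNAs. They were a CLTC probe (-1.13), CD83 (-1.13 and -1.01 at separate probes), ASPM (-1.12), SPI1 (-1.09), CENPE (-1.07) and RELA (-1.07). CD83 is an activation marker, SPI1 a transcription factor, and ASPM and CENPE act at the spindle. Under p65 siRNA the means of these 7 probes were low as well, between -1.46 for CENPE and -0.85 for CD83. The CLTC, ASPM and CENPE means came mainly from 1 h and 3 h. At 6 h these probes read 0.04, -0.19 and 0.58 under RPS3 siRNA, and 0.14, -0.35 and -0.065 under p65 siRNA. RPS3 and its 2 unnamed close probes were the only 3 of the 10 lowest that did not average below 0 under p65 siRNA.

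RPS3A is a different 40S protein gene despite its name, and it shows whether a gene of the same subunit read low. Its 5 probes averaged between -0.28 and 0.10 under RPS3 siRNA. The gene averaged -0.09 ± 0.30 (SD, n = 3) under RPS3 siRNA and 0.14 ± 0.36 under p65 siRNA, with a limma adjusted p of 0.915 for RPS3 siRNA. RELA, the transcript targeted on the other arrays, had 2 probes that disagreed. Its probe 15848_1 read -1.28, -0.99 and -0.94 at 1, 3 and 6 h under RPS3 siRNA and -0.71, -0.98 and -1.05 under p65 siRNA. The second, 28407_1, read 0.50, -0.40 and -0.14 under RPS3 siRNA and -0.12, 0.06 and -0.13 under p65 siRNA. Tested probe by probe, 15848_1 was among the 7 probes that passed under RPS3 siRNA (limma adjusted p 0.0439), and with its probes averaged RELA did not pass. So the RELA readings did not mirror those of RPS3. Probe 15848_1 read low under both siRNAs, while 28407_1 averaged -0.01 under RPS3 siRNA and -0.06 under p65 siRNA.

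Genes beside RPS3 in the genome were read as well. RPS3 lies on chromosome 11, and the 5 nearest genes on each side that the array holds were XRRA1, POLD3, UCP2, FCHSD2 and ATG16L2 before it and UVRAG, EMSY, RSF1, INTS4 and NDUFC2 after it. Their means under RPS3 siRNA ran from -0.36 for EMSY to 0.19 for INTS4, and 0 of 10 had an unadjusted limma p under 0.05. The nearest of them, the autophagy gene UVRAG, is 16 annotated genes away and averaged 0.04.

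The genes of the processes RPS3 is known for were described as lists, by count and median. With probes of a symbol averaged, no member of any list passed in limma's test under RPS3 siRNA, where 0% of all features did, and the median of the other 7266 features was 0.01. Of 34 symbols listed for other 40S proteins, with RACK1 listed under an older symbol too, 13 were on the array. The 13 had a median of -0.10 under RPS3 siRNA and 0.19 under p65 siRNA. Under RPS3 siRNA 10 of 13 averaged below 0, against 3424 of 7266 other features. RPS29 had the lowest mean, -0.43 ± 0.43 under RPS3 siRNA against 0.19 ± 0.37 under p65 siRNA, followed by RPS25 at -0.41 ± 0.33 against 0.09 ± 0.28. The highest were RPS2 at 0.25 and RPS15A at 0.11 under RPS3 siRNA. At an unadjusted p under 0.05, 1 of 13 was lower (RPS25), against 345 of 7266 features. RPS3 siRNA minus p65 siRNA had a median of -0.34 in these 40S genes, against -0.0032 over all other features and -2.57 for RPS3. It was below 0 for 11 of 13, against 3690 of 7266 other features.

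The 6 h pattern of RPS3 was not that of most 40S genes. RPS3 rose by 1.07 at 6 h relative to 1 h and 3 h, while the median of the 13 was -0.24 and 3 were above 0. In limma 5 of 13 passed, with RPS2 higher by 0.60 and RPS20, RPS29, RPS21 and RPS25 lower, between -0.70 and -0.52, against 8.34% of all features upward and 1.93% downward. RPS9 was also higher, by 0.50, and did not pass.

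Factors that assemble the 40S subunit were thinly covered, with 4 of 22 on the array. HEATR1 and KRR1, which act in early processing of the 40S precursor, averaged -0.30 and -0.28 under RPS3 siRNA, and NOP14 and RIOK2 0.10 and 0.08. Their median was -0.10 under RPS3 siRNA and -0.17 under p65 siRNA. The list of NF-kB subunits, IkB proteins and IkB kinases had 11 of 12 on the array, with a median of -0.09 under RPS3 siRNA and -0.28 under p65 siRNA. NFKBIA, which encodes IkBα and is itself an NF-kB target, averaged -0.60 ± 0.28 under RPS3 siRNA and -0.75 ± 0.27 under p65 siRNA. RELA, both probes averaged, was -0.54 ± 0.15 under RPS3 siRNA and -0.49 ± 0.09 under p65 siRNA, means carried by probe 15848_1. CHUK, an IkB kinase gene, and RELB, a subunit gene, were highest under RPS3 siRNA, at 0.10 and 0.05. The list had 3 members lower at an unadjusted p under 0.05 (NFKBIA, RELA and BCL3), 3 of 11 against 345 of 7266 features.

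Base excision repair, the DNA repair pathway of damaged single bases, had 14 of 19 genes on the array, with a median of 0.07 under RPS3 siRNA and 0.02 under p65 siRNA. FEN1, the flap endonuclease gene, was the lowest at -0.46 ± 0.29 under RPS3 siRNA against 0.00 ± 0.35 under p65 siRNA, and TDG, a thymine glycosylase gene, averaged -0.18. The glycosylase genes MUTYH and NTHL1 were highest, at 0.27 and 0.19. Genes of reported RPS3 partners and kinases had 10 of 23 on the array, with a median of -0.04 under RPS3 siRNA and 0.05 under p65 siRNA. CDK1, the mitotic kinase gene, averaged -0.57 ± 0.32 under RPS3 siRNA and 0.04 ± 0.30 under p65 siRNA, TUBB -0.12, AKT1 0.20 and MDM2 0.24 under RPS3 siRNA. The RNA interference machinery, through which an siRNA acts, had 4 of 16 listed symbols on the array, with the AGO genes listed under older symbols too. DICER1 averaged -0.04 and AGO2, the slicer, 0.01 under RPS3 siRNA, while PRKRA averaged 0.15 and TNRC6B 0.33. At an unadjusted limma p under 0.05, KRR1, FEN1 and CDK1 were each the only lower member of their list under RPS3 siRNA, 0 members of the RNA interference list were, and 0 members of any list were higher. Over all other features 345 of 7266 were lower and 290 higher at that p.

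**Figure D4:**
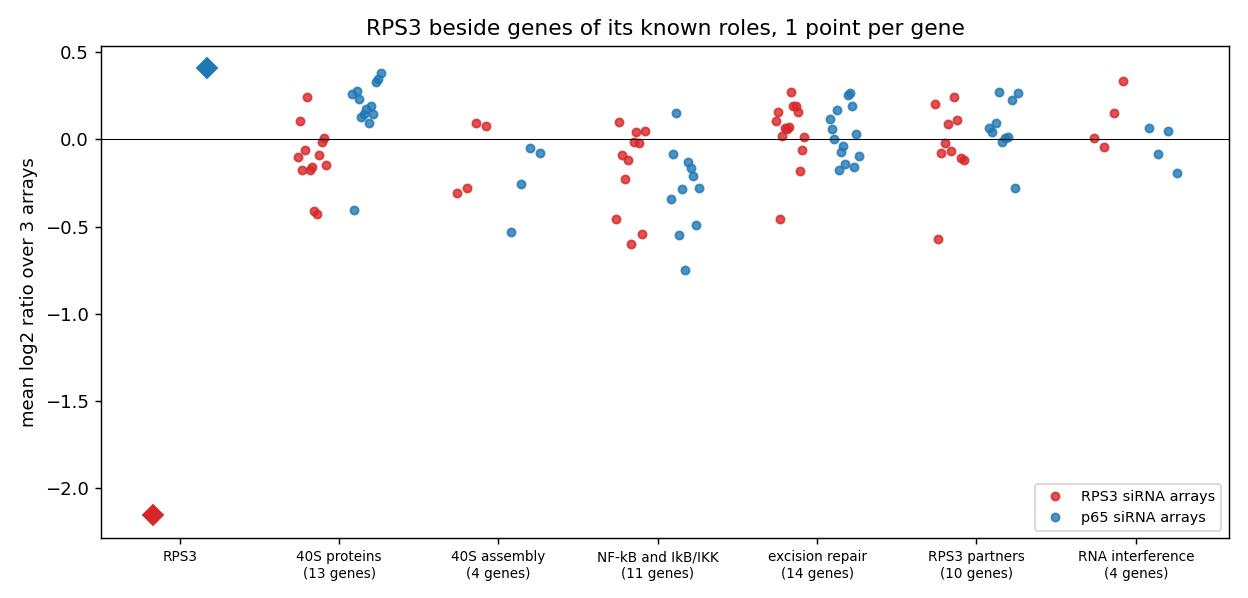
Mean log2 ratio of siRNA over control over 3 arrays (vertical axis) for RPS3 (diamonds) and for the genes of 6 lists (circles, 1 per gene, spread sideways for legibility), with RPS3 siRNA in red and p65 siRNA in blue. RPS3 under RPS3 siRNA stands at -2.16, and the lowest list gene under RPS3 siRNA is NFKBIA at -0.60.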

How the data were processed

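Per the labels, total RNA was extracted with Trizol and reverse transcribed with oligo-dT priming. The authors deposited 1 log ratio per probe and array, read here as log2 of Cy5 over Cy3. Base 10 is excluded because values reach 9.52, while a natural log is not. Image analysis, background correction, normalization and the rule behind blank cells (5.40% to 15.1% of an array) are not given in the sources used here.

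Each array was centred on its median (deposited medians -0.0185 to 0.007). Symbols came from the platform annotation: 10169 probes had 1, 4 had several and 5073 none. Probes of 1 symbol were averaged, and the 7267 features with values on all 6 arrays went into limma (version 3.58.1, run under R 4.3.3), with lmFit and eBayes on group means and a Benjamini-Hochberg threshold of 0.05. Close probes were taken from a separate limma fit of the same design over 10721 single probes, adjusted on its own. Fits were tested on simulated data. Alternatives changed the centring, the averaging of probes, the filter, the weights, the covariates and the arrays included.

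Named probes were RPS3, RPS3A, RELA, the close probes (by range and count, with the low ones named) and their genes' other probes, the 5 most alike by r and by distance (1 is not reported here), the 10 lowest means, and 2 highest and 2 lowest per list. CDK8, SEPTIN2, 35555_1, EPHA7, CCR1, VEGFA, 35023_1, BCL3, RPS9 and the other probes named beside a count were added after their values were seen. The members and lists were chosen with earlier results of these data known.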

Additional observations from a re-analysis of the deposited data

Results flagged for a closer look

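The RPS3 probe itself drew attention because its centred readings lay on opposite sides of control. After centring, all 3 RPS3 siRNA arrays were below 0 and all 3 p65 siRNA arrays above 0, with a mean difference of -2.57. The difference was tested and did not pass (limma adjusted p 0.511), while with the time point as a block it did (0.00552). That block pairs arrays by labelled time, and same-time arrays deviated together little at 1 h and 3 h. The lowest of the p65 siRNA readings was 0.01, at 3 h, close to control. The deposited median of that array was -0.018, so without centring this reading lies just below 0.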

How the results depend on the processing

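The mean of RPS3 under RPS3 siRNA was -2.16 with a limma adjusted p of 0.0993. It passed with each probe tested alone (-2.16, adjusted p 0.0439), after quantile normalization (-2.61, 0.0252), with limma array weights (-2.43, 0.000916) and without both 6 h arrays (-2.52, 0.00178). With the series of experiment ID numbers as a covariate it was -2.24 (0.418), and with the values read as natural logs -3.11. Leaving out 1 array at a time gave -2.52 to -1.97, with adjusted p of 0.0173 to 0.795. The difference between the siRNAs, -2.57, passed with array weights (-2.80, 0.0325) and without both 6 h arrays (-2.57, 0.0154), and ran from -2.92 to -2.21 with 1 array left out. Under p65 siRNA the mean ran from 0.06 to 0.61 with 1 array left out, and the 6 h offset from 1.05 to 1.09, losing its call without either 6 h array (1.06 and 1.07). Close probes that passed numbered 1, against 4 without both 6 h arrays and 0 to 1 with 1 array left out (0 without either siRNA's 1 h or 3 h array). Same-time arrays deviated together from the group means at 6 h (correlation 0.77) and little at 1 h (0.08) and 3 h (0.13), while RPS3 siRNA at 1 h went with p65 siRNA at 3 h (0.52) and RPS3 siRNA at 3 h with p65 siRNA at 1 h (0.58), so time was not taken as pairing all arrays. Each of those cross-time pairs lay within a single series of experiment ID numbers, and whether series or time goes with these correlations was not tested. With time as a replicate block the mean of RPS3 under RPS3 siRNA (-2.16, 0.00192) and the difference (-2.57, 0.00552) passed, as did 2 close probes. The number of all features that passed under RPS3 siRNA was 0, against 7 probe by probe, 2 after quantile normalization, 3 with the block and 149 with array weights. With 1 array left out the median under RPS3 siRNA ran from -0.13 to -0.014 for the close probes, -0.18 to 0.02 for the 40S list, -0.17 to 0.04 for RPS3 partners and -0.0071 to 0.15 for RNA interference. The causes of these shifts were not tested.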
